A study of Homo sapiens with 24 samples.

Results

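Alkaline phosphatases are zinc- and magnesium-dependent enzymes that remove phosphate groups at the outer cell surface, where a glycosylphosphatidylinositol (GPI) lipid anchor holds them. The human genome carries a tissue-nonspecific gene, ALPL, which is expressed in bone, liver and kidney and is needed for mineralisation, and a cluster of tissue-restricted copies. In that cluster ALPP encodes the placental enzyme, ALPPL2 (also named ALPG) the germ cell enzyme and ALPI the intestinal enzyme. ALPP and ALPPL2 are known for reappearing in tumours of many tissues, and ALPL is used as a marker of the osteoblast lineage.

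These 4 genes were followed by their symbols in 24 RNA-sequencing libraries made from BPH-1 and RWPE-1, which are prostate epithelial lines of human origin, among 60448 gene symbols listed for each library, of which 19222 were protein-coding. They were chosen by an earlier finding in the same data that ALPP fell with C-Raf, so the step from vector control to C-Raf parental cells is described for them without a test. BPH-1 is a benign hyperplasia line immortalised with SV40 large T antigen, and RWPE-1 is a normal prostate epithelial line immortalised with a papillomavirus.

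The groups were vector control cells (3 BPH-1 libraries and 1 RWPE-1 library), C-Raf overexpressing cells before injection, called parental (3 and 4), and lines grown out of metastases of C-Raf overexpressing cells (6 and 7). The metastasis-derived cells therefore also carry the C-Raf overexpression of the parental cells and not the vector control. They came from tumours that formed in immune-deficient NSG mice after injection into the heart, which were then cultured for about a week. The labels name lymph node (2), spine (2) and bone (3) for the RWPE-1 lines. They name bone for 4 BPH-1 lines and give conflicting sites for the other 2. The paper describes firefly and Gaussia luciferase reporters in both cell lines. Library titles name the Gaussia reporter (sGluc) only for BPH-1 vector control and parental cells. BPH-1 and RWPE-1 were grown in different media and their tables were deposited separately, so cell line, medium and table cannot be told apart. Within BPH-1, metastasis-derived libraries came in another table than vector control and parental libraries, so there stage and table cannot be told apart either. The labels do not state whether libraries of 1 group came from separate cultures, so p-values measure the spread between these libraries, which may be technical. The 2 BPH-1 lines with conflicting sites share a number in their titles, and the titles of the 2 RWPE-1 lymph node lines differ only in a final letter. Whether the lines of such a pair came from the same animal is not stated, and they were counted as separate libraries. All pairs of libraries within a group differed by more than sampling noise, where a chi-square per gene of about 1 would be noise alone. It was lowest between BPH-1 vector control or parental libraries, at 1.68 to 4.57, against 30.0 to 232 between RWPE-1 parental libraries.

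The libraries held 9035970 to 52851374 counts in all. In 3 BPH-1 metastasis-derived libraries only 111178 to 464765 counts were protein-coding, and tests of ALPP and ALPL that include them are also given without them. The remaining 3 libraries of that group had 38.9% to 83.8% of all their counts in protein-coding genes, against at least 97.2% in every library of the other groups. The other 21 libraries held 20568254 to 42002884 protein-coding counts, with epithelial markers (KRT5, KRT14, KRT8, KRT18, EPCAM, TP63 and CDH1) summing to 2699 to 12180 counts per 1000000 protein-coding counts (CPM). The sum hides shifts in both directions in the BPH-1 metastasis-derived lines among them. Their median KRT8 was 86.6 against 931 CPM in parental cells, KRT18 100 against 843 and EPCAM 80.2 against 198. KRT14 was 3954 against 305 CPM, and the medians of KRT5, TP63 and CDH1 were also higher. Markers of blood cells summed to at most 2.70 CPM, of fibroblasts to 7.35 to 68.8 CPM and of endothelium to 0 to 39.0 CPM, the last reached in a BPH-1 metastasis-derived library. The intestinal epithelium list summed to 10.5 to 165 CPM. Single genes made up most of the highest fibroblast, endothelial and intestinal sums, all in BPH-1 metastasis-derived libraries. They were COL1A1 at up to 67.7 CPM, VWF at up to 38.4 CPM and KLF4 at up to 164 CPM. PECAM1 and CDH5 reached at most 0.394 and 0.294 CPM there. In RWPE-1 metastasis-derived lines the fibroblast markers COL3A1 and DCN reached 20.4 and 6.83 CPM. The part of other cells in the values below was not tested. In bulk RNA, fewer expressing cells and less RNA per cell cannot be told apart.

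ALPP (ENSG00000163283) lies at chr2:232378534-232382889, ALPPL2 (ENSG00000163286) at chr2:232406843-232410714 and ALPI (ENSG00000163295) at chr2:232456123-232460032, all on the plus strand of GRCh38 in GENCODE 29. ALPL (ENSG00000162551) lies apart from them at chr1:21509372-21578412, also on the plus strand. Each gene has 11 coding exons, and the coding sequences run to 1608 bases in ALPP, 1599 in ALPPL2, 1587 in ALPI and 1575 in ALPL. Of the aligned coding bases, 97.8% were identical between ALPP and ALPPL2, 89.7% between ALPP and ALPI and 69.3% between ALPP and ALPL.

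Reads can therefore be shared among the copies. The longest run that ALPP and ALPPL2 have in common is 339 coding bases, which lie at chr2:232380714-232381353 in ALPP and chr2:232408795-232409434 in ALPPL2 across several exons. Over the longest coding transcript of each gene, 22.4% of the 2897 windows of 75 bases in ALPP and 20.6% of the 2419 windows in ALPPL2 also occur in transcripts of another gene. For ALPP these were ALPPL2, ALPI and AC068134.1, an antisense gene that overlaps ALPP. The study's read length is not given in the sources used here. With windows of 50 and 100 bases the shared percentages were 32.4% and 17.5% for ALPP and 29.3% and 15.8% for ALPPL2. In ALPL 0 of 2540 windows of 50 bases were shared. AC068134.1 itself was not analysed here, and without a stated strand setting its reads and those of ALPP cannot be told apart.

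The sequence just before the transcript starts of RefSeq is also closely alike in the cluster, and it is shown because the 3 copies were read at very different levels. Over 250 bases before the start, 88.5% of aligned bases were identical between ALPP and ALPPL2 and 75.6% between ALPP and ALPI. The last 120 bases before the start (GRCh38.p14, plus strand, chr2:232378631-232378750 for ALPP, chr2:232406724-232406843 for ALPPL2 and chr2:232456033-232456152 for ALPI) read as follows, with matches to TTTAAA and AGGTCA in capitals. GENCODE places the start of the longest ALPP transcript further upstream, at base 232378534.
ALPP: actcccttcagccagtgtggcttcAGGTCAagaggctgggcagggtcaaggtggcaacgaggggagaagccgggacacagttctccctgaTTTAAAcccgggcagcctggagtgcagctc
ALPPL2: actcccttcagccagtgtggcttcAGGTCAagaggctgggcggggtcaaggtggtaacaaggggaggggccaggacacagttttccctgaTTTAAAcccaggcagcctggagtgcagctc
ALPI: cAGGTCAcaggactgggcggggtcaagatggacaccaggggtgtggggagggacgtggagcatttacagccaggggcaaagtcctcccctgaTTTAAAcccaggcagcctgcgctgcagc

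All 3 windows hold TTTAAA, which starts 30 bases before the RefSeq start in ALPP and ALPPL2 and 28 before it in ALPI. They also hold 1 AGGTCA each. Searched on both strands of all 35116 RefSeq promoters (250 bases before to 50 after the start), TTTAAA occurred in 12.2% and AGGTCA in 13.8%. The sequence GGGCGG, present in 45.0% of promoters, occurred in ALPPL2 and ALPI and not in ALPP. In ALPL, which has 3 RefSeq promoters, neither TTTAAA nor AGGTCA was found. One of those 3 held TATAAA, present in 11.5% of all promoters, and 4 matches to GGGCGG. The letters TGANTCA were found in none of the members' promoters, and they occurred in 7.71% of all promoters. The same holds for CCAAT, which occurred in 34.6%. CCGGAA, present in 17.2%, was found in 1 ALPL promoter.

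ALPP was the most highly read member in vector control cells. Its level in the 3 BPH-1 vector control libraries was 12.8, 12.5 and 12.1 CPM, from 503, 412.88 and 455.4 expected counts. In the 3 BPH-1 parental libraries it was 1.495, 1.493 and 1.165 CPM, from 47.97, 47.95 and 34 expected counts. All vector control libraries lay above all parental libraries, as the choice of the gene implies, with means of 12.5 ± 0.382 and 1.38 ± 0.190 CPM (SD, n = 3 each) and a ratio of 9.01. In the fit across all genes the log2 difference was −3.18 (SE 0.11), and 39 of 13228 genes had a larger fall. In that comparison 59.8% of genes passed an adjusted p of 0.05, and nothing is read from ALPP's place among them, because this contrast chose it.

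Mean ALPP was lower in RWPE-1 than in BPH-1 at each stage, with 1 RWPE-1 vector control library and overlapping ranges among metastasis-derived lines. The single RWPE-1 vector control library held 43 ALPP counts, or 1.23 CPM (95% exact Poisson interval 0.891 to 1.66, for counting error only). The 4 RWPE-1 parental libraries lay at 0.281, 0.379, 0.157 and 0.159 CPM, from 6 to 15 counts. The mean of the parental libraries was 0.244 ± 0.107 CPM (SD, n = 4), and the vector control value was 5.04 times that mean. With 1 vector control library this step has no replicate check, and both cell lines entered the finding that chose ALPP.

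**Figure D1:**
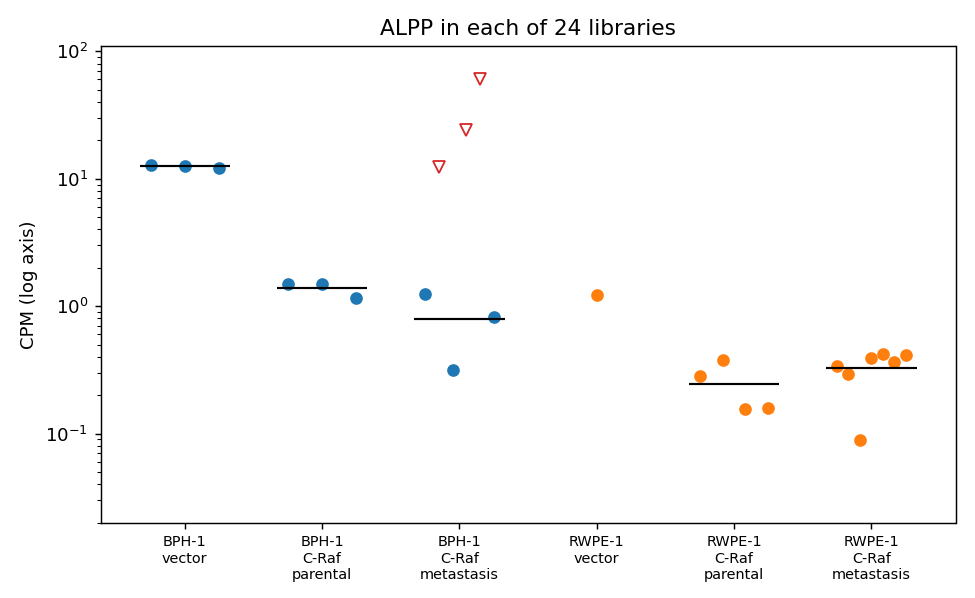
ALPP level in each library in counts per 1000000 protein-coding counts (log axis), by cell line and stage. Filled points are libraries with a count above 0, open red triangles the 3 shallow libraries without an ALPP count, drawn at the level that 3 counts would reach, and lines the means of the other libraries of a group. BPH-1 vector control libraries sit between 12.1 and 12.8 CPM, and all RWPE-1 parental and metastasis-derived libraries lie at or below 0.420 CPM.

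Metastasis-derived BPH-1 lines had ALPP levels at or below those of parental cells. Their 3 deeper libraries lay at 1.24, 0.315 and 0.816 CPM, from 38, 4 and 23 counts, with a mean of 0.791 ± 0.463 CPM (SD, n = 3). In the same order, 70.0%, 38.9% and 83.8% of their counts were protein-coding, and the library with the lowest share had the lowest ALPP and ALPL. The part of this in the result was not tested. The highest of them lay within the range of the parental libraries and the others below it. The 3 shallow libraries held 0 ALPP counts, which, taking 3 counts as the limit that a count of 0 allows, leaves levels of up to 12.38, 24.02 and 60.64 CPM, about or above the vector control level, so they carry no information on ALPP at this depth. The log2 difference from parental cells over all 6 libraries was −0.89 (SE 0.52, 95% interval −1.99 to 0.22) and did not pass edgeR's quasi-likelihood test (adjusted p = 0.252, with 15.5% of all genes passing). The median gene moved by −0.19 on the log2 scale in the same fit. Without the shallow libraries the difference of ALPP was −0.70 (SE 0.48, interval −1.85 to 0.44, adjusted p = 0.280), where 37.7% of genes passed and the median gene moved by 0.07.

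Metastasis-derived RWPE-1 lines had about the ALPP level of the parental libraries. The lymph node lines lay at 0.340 and 0.294 CPM, the spine lines at 0.0897 and 0.391 CPM, and the bone lines at 0.420, 0.365 and 0.410 CPM. All but 1 of these 7 values lay within or just above the range of the parental libraries, from 0.157 to 0.379 CPM, and the first spine line lay below it with 4 counts. The log2 difference was 0.43 (SE 0.41, 95% interval −0.46 to 1.33) and did not pass edgeR's test (adjusted p = 0.848, with 0.0986% of genes passing). The 2 RWPE-1 tables differed in direction. In one, 3 metastasis-derived libraries averaged 0.241 CPM against 0.281 CPM in the single parental library. In the other, 4 averaged 0.397 CPM against 0.232 CPM over 3 parental libraries. With a term for the table the fitted difference was 0.47 (SE 0.41, adjusted p = 0.806 by edgeR).

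A difference in the metastasis step between the cell lines was not detectable in these libraries. The interaction term for ALPP was −1.22 (SE 0.66, 95% interval −2.59 to 0.15), negative because the BPH-1 estimate was below 0 and the RWPE-1 estimate above it, and it did not pass edgeR's test (adjusted p = 0.165, with 29.1% of genes passing). Without the shallow libraries it was −1.18 (SE 0.66, adjusted p = 0.156). Its interval spans 0, so it does not show that the cell lines act alike. These comparisons share their parental libraries with the contrast that chose ALPP.

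ALPP was higher in BPH-1 than in RWPE-1 among parental libraries, by 2.49 on the log2 scale (SE 0.33, 95% interval 1.71 to 3.26, edgeR adjusted p = 0.000271). All 3 BPH-1 libraries lay above all 4 RWPE-1 libraries. In that comparison 74% of all genes passed, so passing does not set ALPP apart. Among metastasis-derived lines, a comparison that uses no library of the choosing contrast, ALPP was higher in BPH-1 by 1.36 (SE 0.41, interval 0.48 to 2.23, adjusted p = 0.0123), where 48.4% of genes passed. The call held without the shallow libraries (1.34, SE 0.48, adjusted p = 0.0297, with 63.6% of genes passing). It was lost without the BPH-1 bone line with 38 counts (0.87, adjusted p = 0.146), and it was lost with DESeq2 (1.51, adjusted p = 0.110). Of the 3 deeper BPH-1 lines, 2 lay above all 7 RWPE-1 lines and the one with 4 counts lay among them.

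ALPPL2 was barely detected. Expected counts above 0 were found in 5 of 24 libraries, and they summed to 11.56 over all libraries. The highest was 6.36 expected counts, or 0.169 CPM, in the third BPH-1 vector control library. The other values above 0 were 1.12 expected counts in the second vector control library, 1.03 and 2.05 in BPH-1 parental libraries and 1 in a RWPE-1 spine line. All of these 4 lay below the level of 3 counts, so no direction between stages can be read. Among 8 exact two-sided permutation tests on log2(CPM + 0.1), ALPPL2 in metastasis-derived against parental cells differed by −0.37 in BPH-1 (p = 0.0833, adjusted 0.333) and 0.04 in RWPE-1 (p = 1).

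Summing the 3 copies of the cluster changed the ALPP values little. ALPP had fractional expected counts in 4 libraries, all BPH-1 and all among those with an ALPPL2 value above 0, and whole ones in the other 17 where it was found. Adding ALPP, ALPPL2 and ALPI gave 12.5 ± 0.295 CPM in BPH-1 vector control and 1.42 ± 0.218 CPM in parental libraries (SD, n = 3 each), a ratio of 8.86 against 9.01 for ALPP alone. In the fits with the 3 genes summed, the difference between metastasis-derived and parental BPH-1 cells was −0.92 (SE 0.53, edgeR adjusted p = 0.237). These summed fits include the shallow libraries. Between the cell lines the difference was 2.52 (SE 0.33, adjusted p = 0.000263) among parental and 1.34 (SE 0.40, adjusted p = 0.0104) among metastasis-derived libraries. The exact permutation test of the sum over the same metastasis-derived libraries gave −0.56 (p = 0.411, adjusted over 8 tests 0.658), where the shallow libraries enter at 0. Without them it was 0.94 (adjusted p = 0.2), so this test did not pass either way.

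ALPI was listed at 0 in all 24 libraries. Taken over each group, 3 counts would be 0.0273 CPM in BPH-1 vector control, 0.0321 CPM in BPH-1 parental and 0.0101 CPM in RWPE-1 metastasis-derived libraries, so ALPI was not detectable at this depth.

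ALPL, the tissue-nonspecific enzyme, was higher in BPH-1 than in RWPE-1, and no tested difference between metastasis-derived and parental cells passed. In BPH-1 it was 1.28, 1.85 and 1.72 CPM in vector control and 1.84, 1.93 and 1.37 CPM in parental libraries, from 40 to 65 counts each. The stages overlapped, with means of 1.62 ± 0.302 and 1.71 ± 0.300 CPM (SD, n = 3 each). The fitted log2 difference of parental from vector control was 0.08 (SE 0.19). The 3 deeper metastasis-derived libraries lay at 1.27, 0.789 and 1.24 CPM, all below all 3 parental libraries, and the 3 shallow ones held 0 counts.

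That lower level in metastasis-derived BPH-1 lines did not pass the test. The log2 difference of ALPL from parental was −0.77 (SE 0.49, 95% interval −1.80 to 0.26, edgeR adjusted p = 0.284) with all libraries and −0.57 (SE 0.33, interval −1.35 to 0.22, adjusted p = 0.211) without the shallow ones. In the lines from bone, the tissue in which ALPL is a lineage marker, the 2 deeper BPH-1 libraries lay at 1.27 and 0.789 CPM. The RWPE-1 bone lines lay at 0.0420, 0.122 and 0.0684 CPM, against 0 to 0.168 CPM in the lymph node and spine lines. Over all 7 RWPE-1 lines ALPL differed from parental by 0.19 on the log2(CPM + 0.1) scale (exact two-sided permutation p = 0.536, adjusted over 8 tests 0.715, smallest possible p 0.00303).

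RWPE-1 cells had hardly any ALPL at any stage. The vector control library held 0 counts, which allows up to 0.0859 CPM, the 4 parental libraries held 1, 1, 1 and 3 counts (0.0253 to 0.0797 CPM), and the 7 metastasis-derived libraries 0 to 6 counts. The mean parental level was 1.71 CPM in BPH-1 against 0.0398 CPM in RWPE-1, and each of the 3 BPH-1 libraries lay above all 4 RWPE-1 libraries. The fitted log2 difference was 5.31 (SE 0.37, 95% interval 4.44 to 6.18). Among metastasis-derived lines the deeper BPH-1 libraries averaged 1.10 CPM against 0.0668 CPM in RWPE-1, with a fitted difference of 4.07 (SE 0.69, interval 2.55 to 5.58). Both are given as descriptions, because ALPL passed the low-count filter there through the BPH-1 group in which it is high, and in the second case only without the shallow libraries. Over all 13 of these libraries the exact two-sided permutation test on log2(CPM + 0.1) gave a difference of 1.13 (p = 0.179, adjusted over 8 tests 0.477), where the 3 shallow libraries enter at 0. Without them it was 2.91 (adjusted p = 0.0667). There all 3 BPH-1 libraries lay above all 7 RWPE-1 libraries, so the exact p was the smallest that so few libraries allow. The interaction term for ALPL was −1.33 (SE 0.94, interval −3.29 to 0.64), and −1.28 (SE 0.98) without the shallow libraries. It is likewise a description, because ALPL passed the filter in that fit through BPH-1 and was too low for the RWPE-1 fit.

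**Figure D2:**
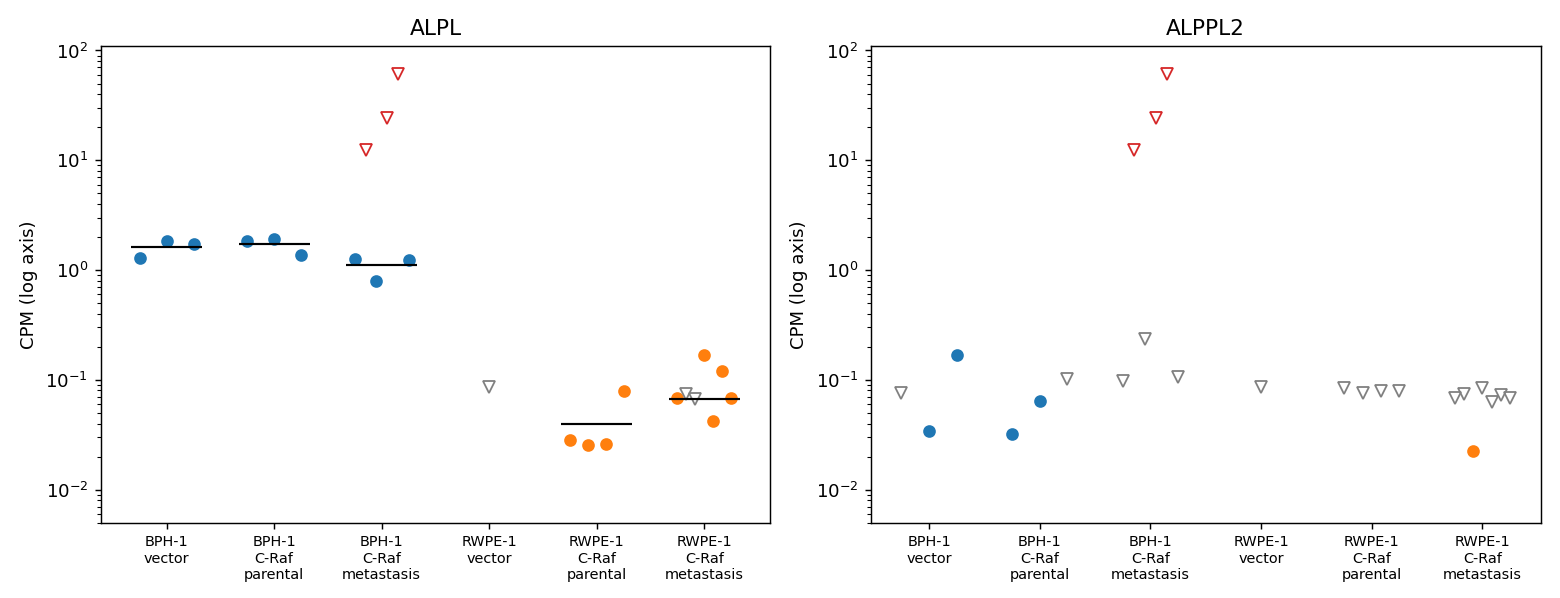
ALPL (left) and ALPPL2 (right) in each library in counts per 1000000 protein-coding counts (log axis). Filled points are libraries with a count above 0, open triangles libraries with 0 counts drawn at the level that 3 counts would reach (red for the 3 shallow ones), and lines in the ALPL panel the group means without the shallow libraries. ALPL lies between 0.789 and 1.93 CPM in the deeper BPH-1 libraries and at or below 0.168 CPM in RWPE-1, and ALPPL2 is at 0 in 19 libraries.

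The order of ALPP and ALPL differed between stages in BPH-1, through the ALPP step that chose the gene, and not in RWPE-1. Levels of different genes are compared here as CPM per kilobase of the longest coding transcript. In BPH-1 vector control cells ALPP stood at 4.20 ± 0.128, ALPL at 0.624 ± 0.117 and ALPPL2 at 0.0271 ± 0.0358 (SD, n = 3), and the ratio of ALPP to ALPL was 5.90 to 8.77 over the libraries. In BPH-1 parental cells ALPL stood at 0.662 ± 0.116 and ALPP at 0.4658 ± 0.0640, with ALPL above ALPP in 3 of 3 libraries although their spreads nearly meet. ALPL was also above ALPP in 3 of 3 deeper metastasis-derived libraries. In RWPE-1 ALPP was above ALPL in all 12 libraries. Across the 21 deeper libraries the log2 CPM of ALPP and ALPL had a Pearson r of 0.73, which the cell lines contribute to, since both genes are higher in BPH-1.

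**Figure D3:**
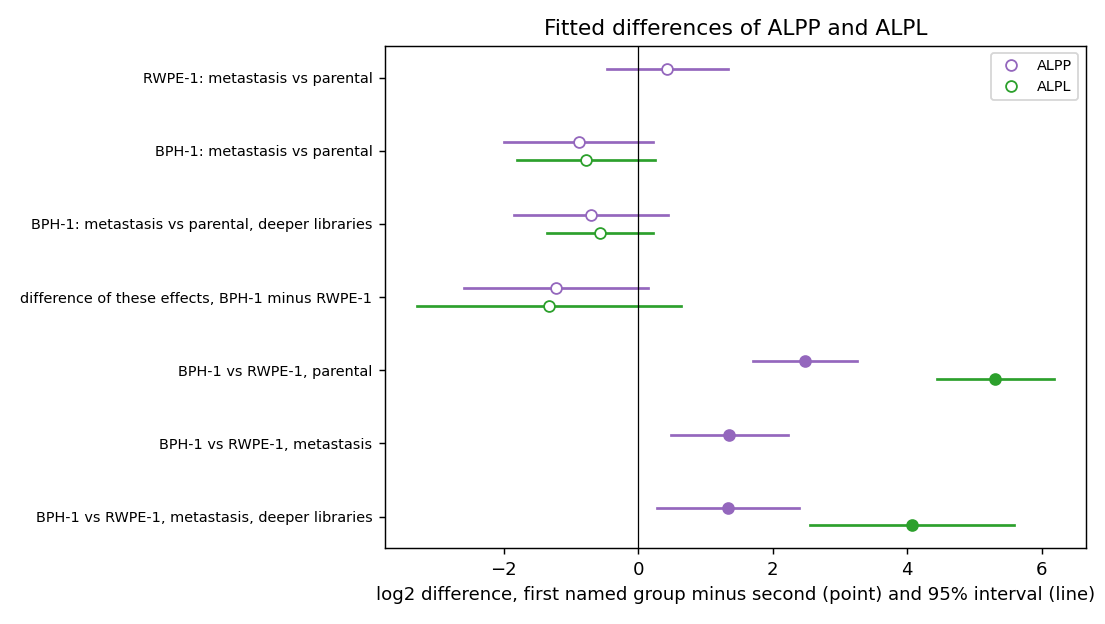
Fitted log2 differences (points) with 95% intervals (lines) of ALPP and ALPL in the comparisons named beside the rows. They are drawn as first named group minus second, filled where the edgeR adjusted p was below 0.05. The step from vector control to C-Raf parental cells, which chose ALPP, is left out. The metastasis steps all span 0, while ALPP is higher in BPH-1 by 2.49 among parental libraries. The ALPL differences between cell lines and between their metastasis effects are descriptions, since ALPL passed the low-count filter there through BPH-1. ALPL has no point where it did not pass the low-count filter.

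The genes whose log2 CPM correlated most with that of ALPP were KITLG, the ligand of the receptor KIT (Pearson r 0.93), PCDH18, a protocadherin (0.92), PPP2R2B, a regulatory subunit of protein phosphatase 2A (0.92), ERP27 of the endoplasmic reticulum (0.92) and SLC1A3, a glutamate transporter (0.92), out of 15328 genes over 21 libraries. The likeness is a description over libraries that share cell line and stage. KITLG had a mean of 103 CPM in BPH-1 vector control, 47.0 CPM in parental and 25.3 CPM in the deeper metastasis-derived libraries, and lay at 12.3 to 17.7 CPM in the RWPE-1 groups. PPP2R2B had group means of 15.6, 1.24 and 0.421 CPM in the same order in BPH-1, and at most 0.0596 CPM in RWPE-1. Closest to ALPL were PAPD7 (r 0.98), WIPF3 (0.98), B4GALNT1, a ganglioside synthase (0.98), STAC (0.98) and C1orf61 (0.98). B4GALNT1 lay at 60.5 to 78.0 CPM in BPH-1 and 4.95 to 8.07 CPM in RWPE-1 group means.

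The protein-coding neighbours of the cluster on chromosome 2 showed small differences in BPH-1 parental cells. Of the 5 nearest genes on either side, 5 were tested and 1 was called, beside 59.8% of all genes. It was COPS7B, a subunit of the COP9 signalosome, at −0.14 (SE 0.05, edgeR adjusted p = 0.0283). DIS3L2, an RNA exonuclease and the nearest tested gene before ALPP, differed by 0.07 (SE 0.05, adjusted p = 0.254). TIGD1, the nearest tested after ALPI, differed by −0.09 (SE 0.10, adjusted p = 0.463). PTMA and PDE6D, at 0.06 and 0.10, did not pass either. NPPC, ECEL1, PRSS56, CHRND and CHRNG were near 0 in these groups and not tested.

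Genes that process or serve alkaline phosphatases differed in both directions. The 4 pathway lists (GPI anchor, zinc delivery, phosphate handling and vitamin B6) held 41 tested genes in BPH-1 parental against vector control cells, of which 13 were higher and 8 lower by edgeR. These 21 of 41 stand beside the 59.8% of all genes called in the same fit, and DESeq2 called 17. Their median log2 difference was 0.06, against −0.0018 over all genes. In the GPI list 5 of 27 were higher and 5 lower, the largest of those called being PIGQ at −0.40 (SE 0.04), PIGF at 0.32 (SE 0.11) and PGAP3 at −0.27 (SE 0.08), all of the anchor's synthesis or remodelling. Both SLC30A7 (0.29, SE 0.05) and SLC30A5 (0.19, SE 0.04), zinc transporters of the secretory pathway that load alkaline phosphatases, were higher, and SLC30A6 was at 0.01 (adjusted p = 0.839).

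Phosphate handling held differences in both directions. In that list 5 of 8 tested genes were higher and 2 lower in parental cells by edgeR, beside 59.8% of all genes called. DESeq2 called 5 genes of the list. NT5E, the GPI-anchored surface nucleotidase CD73, rose from a mean of 92.5 to 340 CPM (log2 difference 1.86, SE 0.03, adjusted p = 1.20e-27), and SLC20A1, a sodium-phosphate importer, from 60.3 to 158 CPM (1.37, SE 0.03, adjusted p = 2.86e-24). Its relative SLC20A2 rose by 0.29 (SE 0.04, adjusted p = 5.18e-07). The genes called lower were ENPP1, which makes pyrophosphate, from 0.477 to 0.238 CPM (−1.04, SE 0.37, adjusted p = 0.0184), and the phosphate exporter XPR1 (−0.16, SE 0.04, adjusted p = 0.000364). In vitamin B6 metabolism, whose phosphate form ALPL hydrolyses, PDXK fell by 0.16 (SE 0.03).

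Among markers of tissues that express the tissue-restricted copies, 4 placental and germ cell genes were lower and 1 was higher in BPH-1 parental cells. The list held 12 genes, of which these 5 were tested, beside 59.8% of all genes called. PSG4, a pregnancy-specific glycoprotein, fell from 13.4 to 4.08 CPM (log2 difference −1.73, SE 0.08, edgeR adjusted p = 5.32e-17). SALL4 fell from 2.61 to 1.35 CPM (−0.95, SE 0.18) and POU5F1 from 2.24 to 1.26 CPM (−0.85, SE 0.17), both transcription factors of pluripotent and germ cells. TFAP2C, which also acts in trophoblast, was higher by 0.12 (SE 0.04). Values of PSG4 and POU5F1 are uncertain because near-identical family members or pseudogenes can share their reads. The whole list summed to 53.8 to 55.3 CPM in vector control and 45.1 to 47.2 CPM in parental libraries, and CGA, the placental hormone subunit, was not among the genes tested.

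Of other marker lists in the same comparison, in which 59.8% of all genes were called, 1 of 3 tested osteoblast genes was called (COL1A1, a fall of 1.17 on the log2 scale, SE 0.06). All 3 tested fibroblast markers were lower and 6 of 7 epithelial markers were called, 4 higher and 2 lower. KLF4 in the intestinal list was higher by 0.32 (SE 0.06). Of the tested blood cell markers 1 of 2 was lower and of the endothelial markers 1 of 2 was higher.

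**Figure D4:**
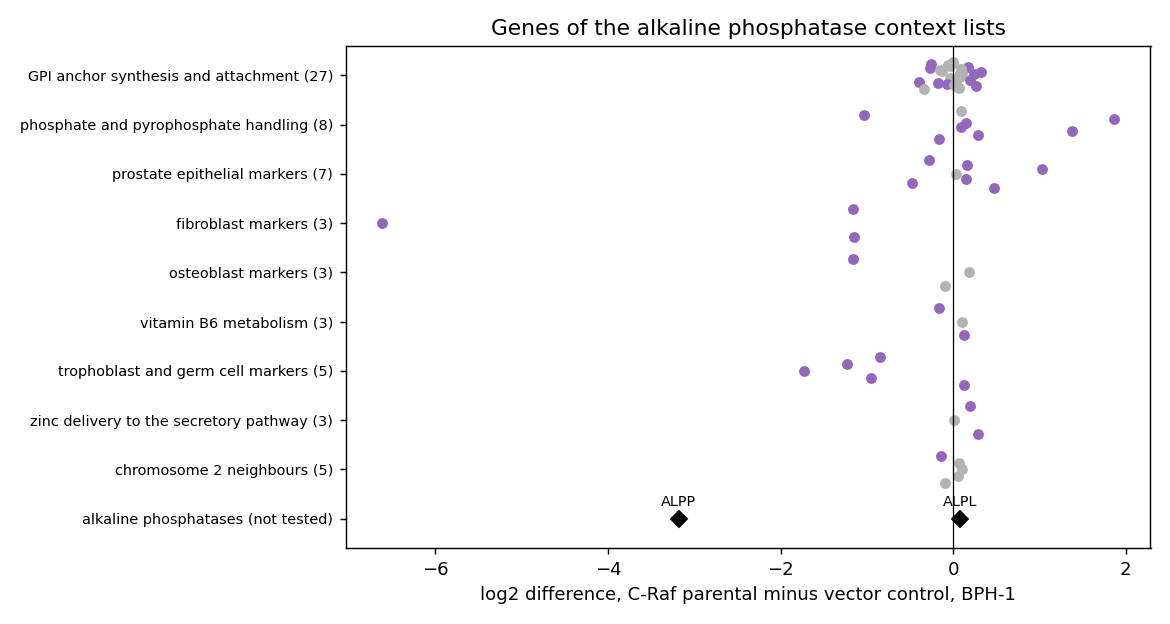
Log2 difference of C-Raf parental from vector control BPH-1 cells (horizontal axis) for every tested gene of each list with at least 3 tested genes and of the chromosome 2 neighbours, in rows, with the number tested in brackets. Purple points passed an edgeR adjusted p of 0.05 and grey points did not, and black diamonds are ALPP and ALPL, shown without a test. ALPP is drawn at −3.18, the value that chose it, and 4 of 5 placental and germ cell genes lie below 0.

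In metastasis-derived RWPE-1 lines 0 of 42 tested genes of the 4 pathway lists were called against parental by edgeR, 1 at an unadjusted p below 0.05 and 1 by DESeq2. Only 0.0986% of all genes were called in that edgeR fit, so the count of 0 does not set these lists apart. In metastasis-derived BPH-1 lines 2 of 40 were lower with all libraries, beside 15.5% of all genes called. Without the shallow libraries 4 were higher and 8 lower of 40, a share below the 37.7% called among all genes. There GPAA1, of the complex that attaches the GPI anchor, fell from 73.1 to 16.9 CPM (log2 difference −2.06, SE 0.24, edgeR adjusted p = 0.00258), while PGAP1, which remodels the anchor, rose from 16.0 to 62.0 CPM (2.01, SE 0.24, adjusted p = 0.00274) and PIGL rose by 1.38 (SE 0.25, adjusted p = 0.00839). PDXP fell by 1.62 (SE 0.32) in the vitamin B6 list.

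At the metastasis step in BPH-1, 2 of 6 tested placental and germ cell genes were higher with all libraries, beside 15.5% of all genes called, and none lower. Without the shallow libraries 4 of 6 were higher, beside 37.7%, a count chosen after seeing the data. They were POU5F1 (3.34, SE 0.85, adjusted p = 0.0239), TFAP2C (0.85, SE 0.16, adjusted p = 0.00930) and PSG1 (1.66, SE 0.43, adjusted p = 0.0247) by edgeR, and ERVFRD-1, a placental envelope gene of retroviral origin. ERVFRD-1 was at 0 in all parental libraries and at 1.10 to 5.29 CPM in the deeper lines. It passed the filter only through the latter, so it could only be higher, and its place in the count of 4 is a description. PSG4, at 1.44 to 2.92 CPM in the deeper lines, was not called (−0.75, SE 0.33, adjusted p = 0.119). COL1A1 and PHEX, of the osteoblast list, were higher by 2.45 (SE 0.20) and 2.17 (SE 0.51), beside the ALPL difference of −0.57, which did not pass. RUNX2, the third tested gene of that list, lay at 4.65 to 8.09 CPM in these lines and 9.52 to 9.81 CPM in parental libraries (−0.56, SE 0.25, adjusted p = 0.119). The list summed to 59.1 to 81.8 CPM in these lines and 22.6 to 22.8 CPM in parental libraries, of which COL1A1, also a fibroblast marker, made up 46.5 to 67.7 and 10.5 to 10.7 CPM. IBSP and DMP1 were at 0 in all of them.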

How the data were processed

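RNA was measured by mRNA sequencing in 24 libraries. The authors trimmed reads with cutadapt, checked them with FastQC, aligned them to hg38 with STAR and estimated expression with RSEM, and they deposited 4 tables of expected counts per gene symbol, before any filter, batch adjustment or log transformation. Read length, strand setting and tool versions are not given in the sources used here. Groups came from the labels.

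The deposited expected counts were rounded to whole numbers. Protein-coding genes (19222 symbols, matched through GENCODE 29 and RefSeq) that passed filterByExpr were fitted with edgeR 4.0.16. The fits used TMM scaling, the quasi-likelihood test and Benjamini-Hochberg adjustment over all genes tested, with threshold 0.05. CPM used TMM-scaled protein-coding totals, and the log2 CPM values of edgeR used a prior count of 2. Members too low for the fit were compared by exact two-sided permutation tests on log2(CPM + 0.1). Counting intervals are exact Poisson at 95%, and a count of 0 allows up to 3 counts. The edgeR script was tested on simulated data. Alternatives were DESeq2 1.42.0, other scaling, no filter, all genes, the copies summed, a table term, a replicate block, 6 groups in 1 fit and leaving out libraries. Leaving out the 3 shallow libraries (at most 464765 protein-coding counts) in the permutation tests and list counts was chosen after seeing the data.

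The members and gene lists were chosen with earlier results of these data known. Named genes were all 4 members, the 5 genes most correlated with ALPP and with ALPL, the neighbours on chromosome 2, and for each list up to 3 called genes with the largest differences at a mean of at least 1 CPM. SLC30A6, CGA, ENPP1, XPR1, RUNX2, PSG1, ERVFRD-1, IBSP, DMP1, TFAP2C in parental cells and PSG4 in metastasis-derived lines fall outside that rule and were named after their values were seen. Sequences came from GENCODE 29 transcripts and RefSeq promoters (250 bases before to 50 after the start, GRCh38.p14). In all, 0 columns of library values were left unused. Some genes and a stretch of sequence are not reported here.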

Additional observations from a re-analysis of the deposited data

Results flagged for a closer look

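Of 10 combinations of gene and group with 4 to 10 libraries and a value above 0, 4 held a library far from the others by Dixon's test at 95%. The nominal rate of 1 in 20 does not apply to counts this low or to overlapping values, so no excess is read from this. In RWPE-1 metastasis-derived lines the first spine line stood apart for ALPP, with 0.0897 CPM from 4 counts, below the other 6. The same library held the only ALPPL2 count of its group, 0.0224 CPM from 1 count, which the test flags whenever all others are at 0. With ALPP, ALPPL2 and ALPI summed it lay at 0.112 CPM, again the lowest, which mostly repeats the ALPP value. Among RWPE-1 parental libraries the fourth had the highest ALPL level, 0.0797 CPM from 3 counts against 1 count in each of the others. All of these values rest on at most 5 counts.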

How the results depend on the processing

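The higher ALPP level in BPH-1 metastasis-derived lines was the one call on a member that changed. It was lost with DESeq2 (1.51, adjusted p = 0.110), without the low-count filter (1.18, adjusted p = 0.0558) and without the first BPH-1 bone line (0.87, adjusted p = 0.146). Over leaving out each library in turn it ran from 0.87 to 1.65. The sum of the 3 copies in the same lines turned from −0.56 to 0.94 (exact permutation, adjusted p = 0.2) without the shallow libraries. The metastasis steps stayed below the threshold for ALPP in RWPE-1 (0.27 to 0.73 over left-out libraries) and for ALPP (−1.37 to −0.52) and ALPL (−0.93 to −0.55) in BPH-1. The interaction term ran from −1.68 to −0.90 for ALPP and, as a description, from −1.85 to −0.96 for ALPL. The parental difference between cell lines kept its call for ALPP (2.32 to 2.79), and that of ALPL, a description, ran from 5.15 to 5.84. As CPM of all genes without TMM scaling, mean ALPP in BPH-1 vector control was 14.63.

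Counts of called genes moved more. For RWPE-1 metastasis-derived lines 13 genes became 168 with DESeq2, 20 over all genes of the tables, and 4 (without the third parental library) to 40 (without the first bone line) with 1 library left out. For BPH-1, 2101 became 3597 over all genes, 5074 without the shallow libraries, and 961 (without the first parental library) to 3312 (without the second bone line). The interaction count of 4175 became 6349 without the shallow libraries and 2871 to 5393 with 1 library left out. With RLE scaling the split between BPH-1 and RWPE-1 metastasis-derived lines went from 3327 higher and 2928 lower to 2950 and 3524, and the median gene moved to −0.16. The cause of these changes was not tested.

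Replicate numbers did not pair vector control and parental BPH-1 libraries (correlations of deviations 0.0043, 0.0074 and −0.022). The replicate block gave 7680 called genes against 7907. Depth limits ALPPL2, ALPI and, in RWPE-1, ALPL, and the 3 shallow libraries cannot show any member.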
